A study of Mus musculus with 20 samples.

Results

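The genes described here are 8 genes that glucocorticoid hormones are known to raise in liver cells: Zbtb16, Fkbp5, Tsc22d3, Sgk1, Mt1, Mt2, Dusp1 and Tat. They were followed in the livers of male C57BL/6J mice kept for more than a year under 137Cs gamma rays. Members were chosen by gene symbol: every probe set whose only symbol in the platform annotation was a member was taken, which gave 16 of the 45101 probe sets on the array. Of these, 13 passed the filter on low signal, and each of the 8 genes kept a probe set among the 11216 genes tested. The 3 that did not pass were 1447736_at of Fkbp5 (signals of 1.06 to 33.1), 1444365_at of Tsc22d3 (15.3 to 113.6) and 1451612_at of Mt1 (4.78 to 135.6).

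Glucocorticoids (corticosterone in mice) enter the cell and bind the glucocorticoid receptor, which is held ready in the cytoplasm by heat shock proteins and immunophilins. The bound receptor moves to the nucleus, where it binds DNA at glucocorticoid response elements and raises or lowers the transcription of nearby genes. In liver this programme supports the making of glucose, the breakdown of amino acids and the restraint of inflammation, and the hormone in blood follows a daily rhythm. Several of the members also answer to other signals: metals and inflammation raise the metallothioneins, and stress and growth factors raise Dusp1 and Sgk1.

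All mice were 8 weeks old when irradiation began and were exposed for 22 h per day, with unirradiated mice as controls. Experiment 1 lasted 485 days with a low dose-rate of 0.042 mGy per day (20.6 mGy in total), a medium one of 0.858 (416 mGy) and a high one of 16.6 (8030 mGy). Experiment 2 lasted 401 days with 0.05 mGy per day (20 mGy in total), 1.00 (401 mGy) and 20.0 (8015 mGy). Each irradiated group had 3 arrays of 1 mouse each, whereas each experiment had a single control array of pooled RNA, from 3 mice in experiment 1 and from 6 mice in experiment 2. Livers were collected directly after the exposure, and the time of day of killing was not stated in the sources used. Because a pool has no spread of its own, the comparisons with control lean mostly on the spread between irradiated mice, and they all share the same pools. The main fit also counts as spread any disagreement between the experiments in the differences of the dose levels.

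Signals are the authors' scaled MAS5 intensities on a linear scale. Array medians ran from 81.3 to 104.8, and correlations between arrays from 0.909 to 0.943. The ratio of the 3' to the 5' Gapdh probe set ran from 0.690 to 0.769 for experiment 1 and from 0.871 to 0.993 for experiment 2, so the experiments differed in this sign of RNA or labelling quality. The 6 hepatocyte markers on the array summed to signals of 270700 to 364100 on every array. Fewer cells of a type and less RNA per cell cannot be told apart in whole liver. The 4 neutrophil markers summed to 3425 in low mouse 1 of experiment 1 and to between 374.5 and 1603 on the other arrays. That mouse also had the highest signals of Mt1, Mt2 and the acute-phase gene Lcn2. The high-against-low differences of Mt1 and Mt2 and their likeness to other genes are given with and without it.

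The DNA just before the start of these genes shows some of the sites by which such signals are known to act. RefSeq windows of 250 bases before a transcript start (assembly GRCm38.p6) were available for 7 of the 8 genes, 14 windows in all. The glucocorticoid response element was searched as AGAACA, any 3 bases and TGTTCT, which reads the same on both strands and is held by 3 of 32851 such windows (0.00913%). Of the member windows, the one at Sgk1 below held it, at 189 to 175 bases before the start. It is shown because Sgk1 is the one gene of the 7 with the full element, which is in capitals.
Sgk1, chr10:21993640-21993889, plus strand: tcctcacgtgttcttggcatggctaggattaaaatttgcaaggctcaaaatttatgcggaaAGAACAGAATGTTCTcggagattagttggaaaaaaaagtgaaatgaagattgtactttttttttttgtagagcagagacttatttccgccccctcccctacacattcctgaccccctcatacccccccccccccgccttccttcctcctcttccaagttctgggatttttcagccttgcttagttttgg
The AGAACA arm on its own, counted on both strands and including arms inside the full element, was found in 16.1% of windows. Among members it occurred in 3 of the 6 Sgk1 windows and 1 of the 3 Tsc22d3 windows.

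The metal response element core was searched on both strands as TGCACNC or TGCGCNC, which 21.4% of windows hold. Mt1 and Mt2 are neighbours on chromosome 8 and are shown because their signals varied together from mouse to mouse. The cores are in capitals, and the Mt1 stretch is the 30 bases around its core.
Mt2, chr8:94172368-94172617, plus strand: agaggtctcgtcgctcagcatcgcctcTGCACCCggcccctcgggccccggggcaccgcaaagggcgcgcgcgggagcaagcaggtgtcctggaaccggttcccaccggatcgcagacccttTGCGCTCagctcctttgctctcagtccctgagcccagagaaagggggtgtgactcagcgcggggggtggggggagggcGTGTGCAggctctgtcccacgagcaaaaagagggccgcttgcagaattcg
Mt1, chr8:94179054-94179083, plus strand: gcggtcccgctgTGCACACtggcgctccag
Mt2 held 3 cores, the nearest at 50 to 44 bases before the start, and Mt1 held 1 at 23 to 17 bases. The annotated Mt1 gene begins at 94178883, inside the Mt1 window (94178839 to 94179088) and before this core. The Mt2 window lies wholly before its gene, so the counts come from unlike windows. The cAMP response element TGACGTCA, present in 1.55% of windows, was found in the window of Dusp1 at 143 to 136 bases before the start. It is shown in capitals because the medium mice lay above all low mice for Dusp1 in experiment 1 and below them in experiment 2. Whether the site has a part in that pattern was not tested.
Dusp1, chr17:26508473-26508722, minus strand: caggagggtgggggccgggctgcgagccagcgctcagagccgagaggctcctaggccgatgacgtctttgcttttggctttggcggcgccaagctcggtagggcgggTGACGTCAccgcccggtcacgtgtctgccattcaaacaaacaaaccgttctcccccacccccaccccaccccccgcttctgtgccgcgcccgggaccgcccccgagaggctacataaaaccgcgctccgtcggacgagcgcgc
None of these motifs was found in the windows of Fkbp5 or Tat, which says only that the letters are not there. A match of letters is a description and not a measure of binding.

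Of the 8 members, 0 passed the threshold (limma, adjusted p under 0.05 over the 11216 genes) in any of the 7 contrasts between dose levels. The background was low too. In high against control 6 genes passed (0.0535%), in medium against control 3 (0.0267%), in low against control 1 (0.00892%) and in irradiated against control 5 (0.0446%). None passed in high against low (0%), medium against low (0%) or high against medium (0%), where 1127, 889 and 431 genes had an unadjusted p under 0.05. Zbtb16 came nearest, with an adjusted p of 0.0614 in high against control. In total, 2 members, Zbtb16 and Fkbp5, had a lower signal in each of the 18 irradiated mice than in the pool of their own experiment, a property shared by 106 of the 11216 genes (0.945%). High mice lay below all low mice in both experiments for 70 genes (0.624%) and above them for 69 (0.615%), with 0 members in either group. Another 98 genes (0.874%) were above their pool in all 18 mice, with 0 members among them. Separations of dose levels within a single experiment, given below for single members, were not counted over all genes. They are descriptions of these mice.

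Zbtb16 encodes PLZF, a zinc-finger transcription factor that is one of the most sensitive responders to glucocorticoids. Its probe set 1439163_at gave 779.5 in the control pool of experiment 1, against 247, 303 and 243 in the low, 251, 410.1 and 307 in the medium and 167, 94.3 and 382 in the high mice. In experiment 2 the pool gave 1060.5, the low mice 857, 859 and 516, the medium mice 211, 206 and 307 and the high mice 193, 216 and 164. All 18 mice lay below their pool, but the levels separated differently by experiment. In experiment 1 the low, medium and high mice overlapped. In experiment 2 every medium and high mouse lay below every low mouse.

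The means over both experiments were 504 ± 291 in low, 282 ± 76.6 in medium and 203 ± 97.0 in high mice (SD, n = 6 each). On the scale log2(signal + 7.12), used for all differences here, the limma fit put high against control at -2.24 ± 0.43 (SE; adjusted p = 0.0614). Medium against control was -1.70 ± 0.43 (adjusted p = 0.301), low against control -1.04 ± 0.43 (adjusted p = 1) and all irradiated mice against control -1.66 ± 0.40 (adjusted p = 0.227). None of these passed the threshold. In a fit to all 45037 probe sets with no filter, an alternative added after seeing the data, the probe set passed in high against control (adjusted p = 0.0393, among 15 called, 0.0333%).

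The high-against-control call depended on single arrays. It was made without low mouse 1 (adjusted p = 0.0491), low mouse 3 (0.0407) or high mouse 3 (0.0117) of experiment 1 and without low mouse 1 (0.0423) or low mouse 2 (0.0329) of experiment 2. It was not made without any other array, and the adjusted p rose to 0.538 without the pool of experiment 1. Leaving out single arrays moved the difference between -2.50 and -2.08. Where arrays were weighted by the number of mice in them, it was called (adjusted p = 0.000202), but 360 genes (3.21%) were.

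Between dose levels, Zbtb16 was lower at the high than at the low dose-rate by -1.20 ± 0.31 (limma, adjusted p = 0.161), without passing. It was -0.51 ± 0.35 within experiment 1 and -1.89 ± 0.35 within experiment 2, and their difference, -1.39 ± 0.49, did not pass (adjusted p = 0.648). With the arrays of experiment 2 fitted on their own, high against low passed (adjusted p = 0.041) and was 1 of 1 genes to do so (0.00892%). Medium against low was -0.66 ± 0.31 (adjusted p = 0.612) and high against medium -0.54 ± 0.31 (adjusted p = 0.999). The difference between experiments of irradiated against control was -0.08 ± 0.63 (adjusted p = 1), and 2 of the 11216 genes (0.0178%) passed in that interaction.

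A second probe set of Zbtb16, 1427638_at, had lower signals and was also below the pool in 18 of 18 mice. It gave 218 and 118 in the pools and 14.7 to 171 in the mice. The probe set 1419874_x_at gave 273 and 308 in the pools and was below in 17 of 18 mice, low mouse 2 of experiment 2 reaching 414. In the limma fit to every probe set, high against control was -0.97 ± 0.58 for 1427638_at and -1.75 ± 0.51 for 1419874_x_at, and neither passed (adjusted p = 0.842 and 0.423). High against low was -0.13 ± 0.41 and -0.91 ± 0.36, again without passing (adjusted p = 0.967 and 0.522). For 1419874_x_at every medium and high mouse of experiment 2 lay below every low mouse, whereas for 1427638_at the levels overlapped there.

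**Figure D1:**
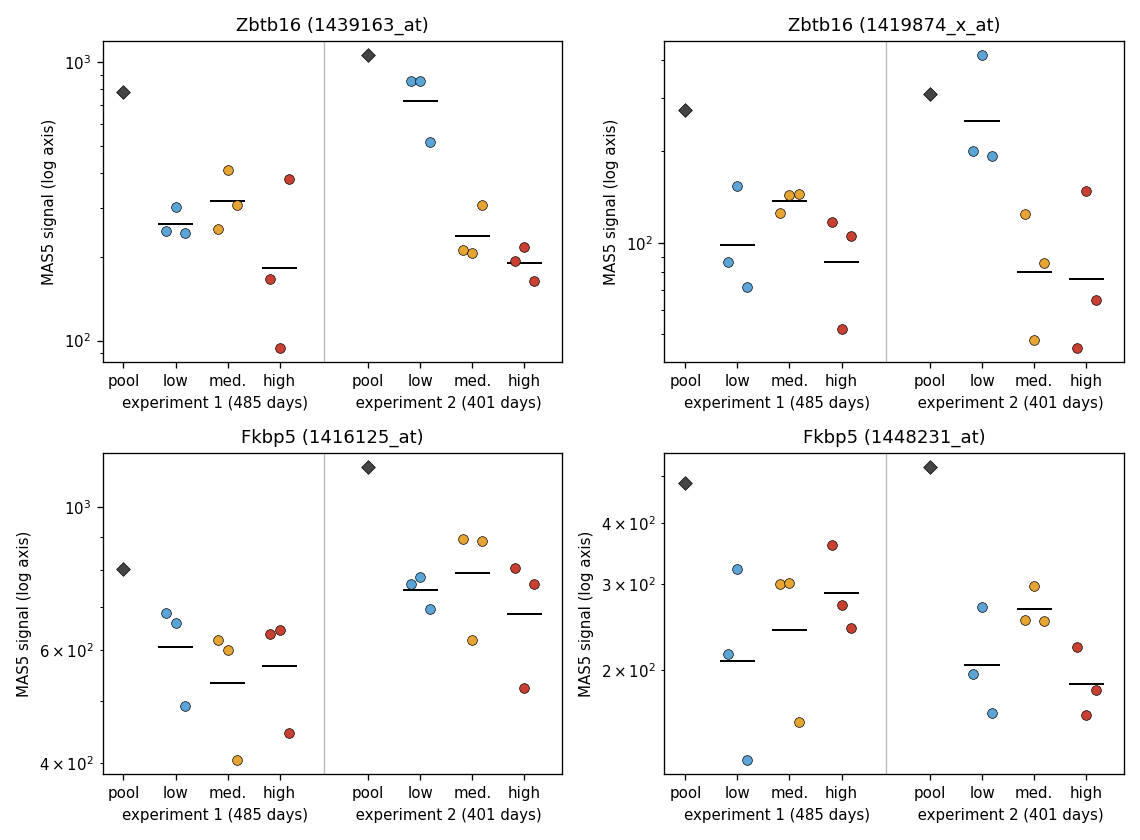
MAS5 signals of 2 probe sets each of Zbtb16 (1439163_at, 1419874_x_at) and Fkbp5 (1416125_at, 1448231_at) in each array on a log axis, by dose level and experiment (diamonds, pools; circles, mice; bars, geometric means). Each of the 18 irradiated mice lies below the pool of its experiment in 3 of the 4 panels, and 17 do for 1419874_x_at.

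Fkbp5 encodes an immunophilin that holds the glucocorticoid receptor in a state of low hormone affinity, and its induction is a feedback brake. Probe set 1416125_at gave 801 in the pool of experiment 1, against 686, 659.9 and 491 in low, 622, 600.4 and 405 in medium and 636, 645 and 445 in high mice. The experiment 2 pool gave 1155, low mice 759, 779.6 and 696, medium mice 894, 623 and 886 and high mice 804, 523 and 759. All 18 mice were below their pool, and the 3 levels overlapped in both experiments.

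The differences from control were of similar size at each level: -0.51 ± 0.20 for low, -0.56 ± 0.20 for medium and -0.62 ± 0.20 for high dose-rate, none past the threshold (limma, adjusted p = 1, 0.631 and 0.411). Irradiated against control was -0.57 ± 0.18 (adjusted p = 0.688), and high against low -0.11 ± 0.14 (adjusted p = 0.833), with a 95% interval of -0.40 to 0.19. A second probe set, 1448231_at, was below the pool in 18 of 18 mice, with 484 and 521 in the pools and 131 to 360.0 in the mice. Its difference was larger, -1.10 ± 0.28 for irradiated against control, but did not pass (adjusted p = 0.293 over all probe sets, 0.0244% of them called). With arrays weighted by mice, 2 members, Zbtb16 and Fkbp5, passed in high (3.21% of genes), medium (2.32%) and irradiated (5.93%) against control.

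Tsc22d3 encodes GILZ, a leucine zipper protein that carries part of the anti-inflammatory action of glucocorticoids. Probe set 1420772_a_at gave 1829 in the pool of experiment 1, against 1646, 1659.6 and 2697 in low, 1691, 1866 and 2223 in medium and 1615, 1060.0 and 1837 in high mice. In the second experiment the pool had 1689, low mice 1448, 1785 and 1405, medium mice 1421, 1438 and 1255 and high mice 855, 1277 and 1451. By this probe set 13 of 18 mice were below their pool, and the dose levels overlapped in both experiments.

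High against control was -0.43 ± 0.21 (limma, adjusted p = 0.705) and high against low -0.40 ± 0.15 (unadjusted p = 0.0126, adjusted p = 0.316), so neither passed. Irradiated against control was -0.19 ± 0.19 (adjusted p = 0.959). Probe set 1425281_a_at was at -0.36 ± 0.21 and 1425557_x_at at -0.74 ± 0.30 in high against control, again without passing (adjusted p = 0.841 and 0.689). Signals of 1425281_a_at were below the pool in 14 of 18 mice and those of 1425557_x_at in 17 of 18. In irradiated against control these probe sets were at -0.19 ± 0.19 and -0.60 ± 0.27, neither past the threshold (limma over every probe set, adjusted p = 0.976 for both). In high against low 1425281_a_at was at -0.29 ± 0.15 and 1425557_x_at at only -0.08 ± 0.21 (same fit, adjusted p = 0.652 and 0.96).

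Sgk1 encodes a kinase that controls ion channels and transporters and is rapidly induced by glucocorticoids and by cell stress. Probe set 1416041_at gave 1170 in the pool of experiment 1, against 1497, 1099 and 1417 in low, 2079, 1949 and 1809 in medium and 1384, 1063 and 1696 in high mice. In experiment 2 the pool gave 911, low mice 796, 982 and 1052, medium mice 1217, 1238 and 864 and high mice 1297, 1669 and 1605. Signals were above the pool in 14 of 18 mice. The level that was highest differed by experiment: medium mice were above all low and all high mice in experiment 1, and high mice above all low and all medium mice in experiment 2.

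High against control was 0.47 ± 0.23 (limma, adjusted p = 0.693), and irradiated against control 0.36 ± 0.21 (adjusted p = 0.959). High against low was 0.36 ± 0.16 (adjusted p = 0.447), medium against low 0.38 ± 0.16 (adjusted p = 0.583) and high against medium -0.02 ± 0.16 (adjusted p = 0.999). None passed. The high-against-low difference was 0.03 ± 0.18 in experiment 1 and 0.69 ± 0.18 in experiment 2, and the difference of those, 0.66 ± 0.25, did not pass (adjusted p = 0.669).

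Dusp1 encodes a phosphatase that switches off stress-activated MAP kinases and is induced by glucocorticoids and by many other stimuli. Probe set 1448830_at gave 2223 in the pool of experiment 1, against 1401, 1786 and 1408 in low, 3788, 4594 and 2234 in medium and 4586, 2642 and 4381 in high mice. The experiment 2 pool gave 2154, low mice 3304, 6434 and 2358, medium mice 1874, 1560.0 and 2120.0 and high mice 2615, 4067 and 2519. All 6 high mice exceeded their pool, as for 941 of 11216 genes (8.39%). In experiment 1 the medium and high mice were above every low mouse, and in experiment 2 the medium mice were below every low and every high mouse.

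The limma differences of Dusp1 were 0.61 ± 0.45 for high against control (adjusted p = 0.8), 0.31 ± 0.41 for irradiated against control (adjusted p = 0.971), 0.50 ± 0.32 for high against low (adjusted p = 0.626) and 0.07 ± 0.32 for medium against low (adjusted p = 0.973). None passed. High against low was 1.30 ± 0.31 in experiment 1 and -0.30 ± 0.31 in experiment 2, and the difference between these, -1.60 ± 0.44, had an unadjusted p of 0.00191 but an adjusted p of 0.594.

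**Figure D2:**
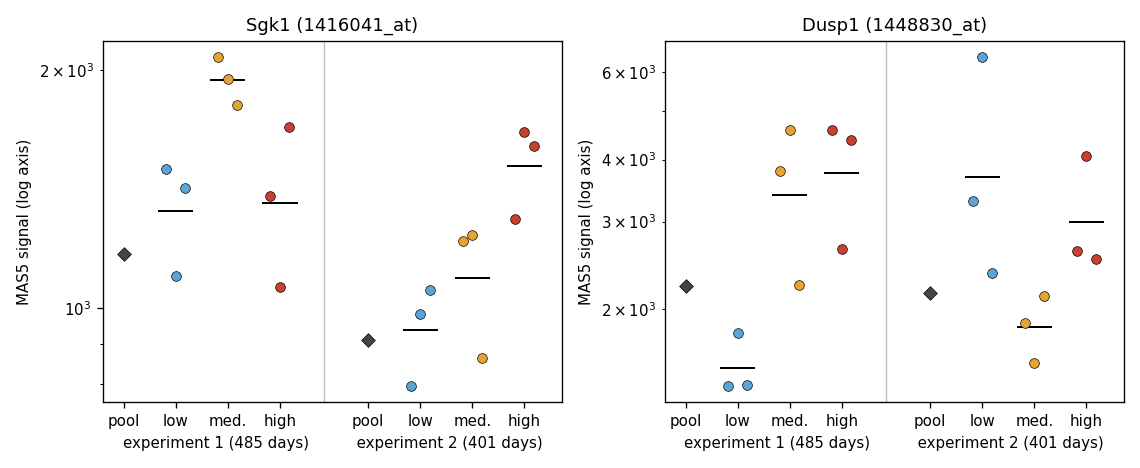
MAS5 signals of Sgk1 (1416041_at) and Dusp1 (1448830_at) in each array on a log axis, by dose level and experiment (diamonds, pools; circles, mice; bars, geometric means). For Sgk1 the medium mice of experiment 1 (1809 to 2079) and the high mice of experiment 2 (1297 to 1669) lie highest, and for Dusp1 the low mice lie lowest in experiment 1 (1401 to 1786) but not in experiment 2.

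Mt1 and Mt2 encode metallothioneins, small cysteine-rich proteins that bind zinc and copper, and are induced by metals, inflammation and glucocorticoids. Probe set 1422557_s_at of Mt1 gave 575 in the pool of experiment 1, against 11343, 692 and 1302 in low, 566, 579.7 and 661 in medium and 588, 565 and 1086 in high mice. In the second experiment the pool had 623, low mice 451, 452 and 689, medium mice 995, 429 and 1299.6 and high mice 1035, 356 and 593. Low mouse 1 of experiment 1 stood far above the others, and 11 of 18 mice were above their pool.

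Mt2, by probe set 1428942_at, gave 263 in the pool of experiment 1, against 5954, 119.9 and 743 in low, 298, 252 and 308 in medium and 421, 316 and 495 in high mice. In experiment 2 the pool gave 882, low mice 161, 344 and 416, medium mice 575, 362 and 553 and high mice 411, 147 and 545. The same low mouse stood out, and here 11 of 18 mice were below their pool. Its neutrophil marker sum was the highest of all, as given above, and the part of that in these signals was not tested.

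Neither gene differed past the threshold. Mt1 was 0.13 ± 0.74 in high against control, 0.39 ± 0.68 in irradiated against control and -0.69 ± 0.53 in high against low (limma, adjusted p = 0.984, 0.977 and 0.691). Mt2 was -0.41 ± 0.88, -0.26 ± 0.81 and -0.42 ± 0.62 in the same contrasts (adjusted p = 0.944, 0.987 and 0.855). Without low mouse 1 of experiment 1, high against low was -0.03 for Mt1 and 0.33 for Mt2, so the sign of the Mt2 value rested on that mouse. Their within-group standard deviations, 1.01 and 1.25 on the log2 scale, were among the widest of all genes, whose median was 0.24. They lay at the 99.1st and 99.9th percentiles. These standard deviations include low mouse 1 of experiment 1. Within experiment 1 they were 1.26 for Mt1 and 1.62 for Mt2, and within experiment 2 they were 0.68 and 0.72.

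**Figure D3:**
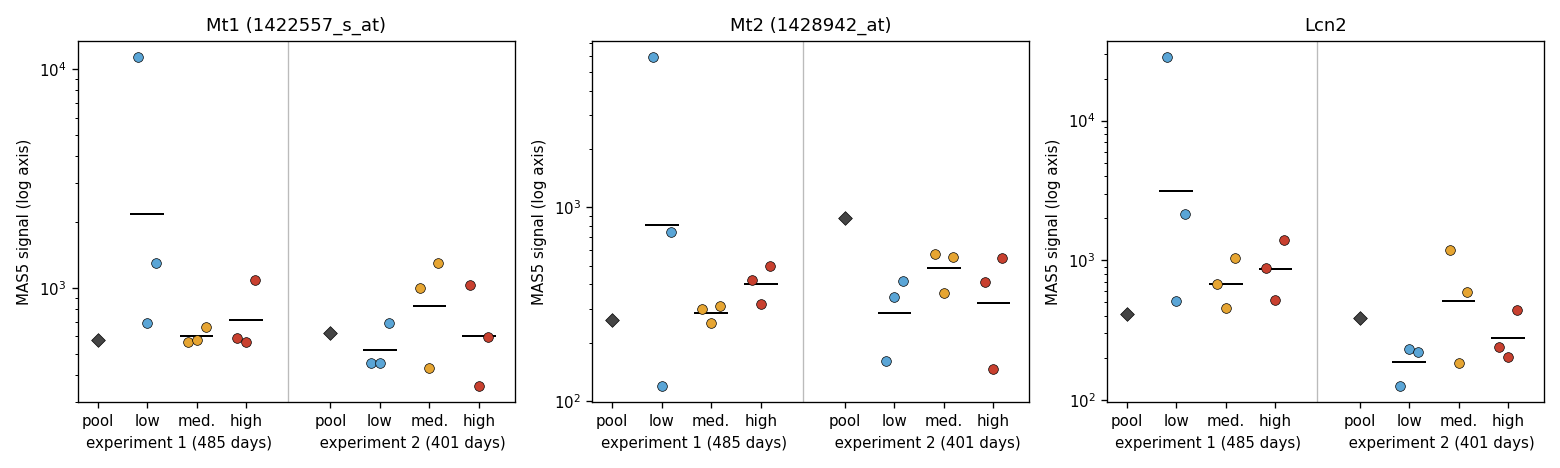
MAS5 signals of Mt1 (1422557_s_at), Mt2 (1428942_at) and the acute-phase gene Lcn2 in each array on a log axis, by dose level and experiment (diamonds, pools; circles, mice; bars, geometric means). Low mouse 1 of experiment 1 has 11343 for Mt1, 5954 for Mt2 and 28487 for Lcn2, above all other arrays.

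Tat encodes tyrosine aminotransferase, the first enzyme of tyrosine breakdown and a classical glucocorticoid-induced enzyme of hepatocytes. Probe set 1451557_at gave 21198 in the pool of experiment 1, against 17384, 15323 and 21510.2 in low, 24345, 20912 and 26791 in medium and 18719.5, 16495 and 16736 in high mice. The experiment 2 pool gave 14450.5, low mice 15719.9, 16633 and 17759, medium mice 20736, 24418 and 13418 and high mice 16607, 19999.6 and 19068. No level stood apart in both experiments, the high mice being below the medium mice in experiment 1 and overlapping them in experiment 2.

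High against control was 0.03 ± 0.18 (limma, adjusted p = 0.984) and irradiated against control 0.10 ± 0.16 (adjusted p = 0.977), neither past the threshold. High against low was 0.05 ± 0.13 (adjusted p = 0.918) and medium against low 0.30 ± 0.13 (adjusted p = 0.583). The intervals of the high differences were -0.34 to 0.40 against control and -0.21 to 0.31 against low. The within-group standard deviation of Tat, 0.23, lay at the 47.9th percentile of genes.

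**Figure D4:**
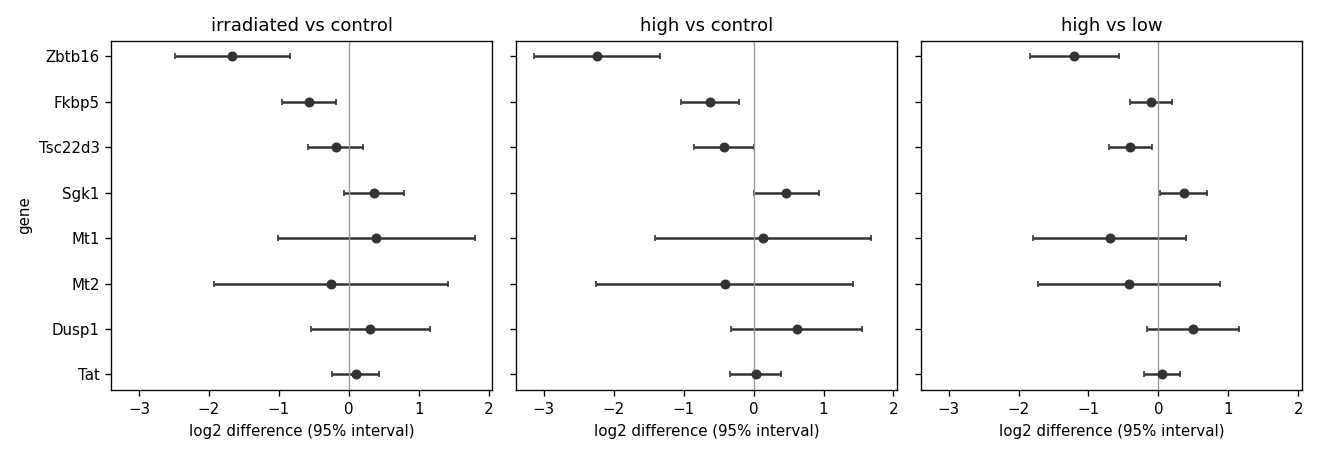
Differences of the 8 genes on the log2(signal + 7.12) scale with 95% intervals from the limma fit, for irradiated against control, high against control and high against low. Zbtb16 is farthest below 0 in each (-1.66, -2.24 and -1.20) and no gene passes the adjusted threshold.

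The experiments differed in length, dose-rates and Gapdh ratio, which cannot be told apart in the comparison of experiment 2 with experiment 1. It called 4761 of 11216 genes (42.4%) and 3 of 8 members. Fkbp5, by 1416125_at, was higher in experiment 2 by 0.39 ± 0.11 (limma, adjusted p = 0.00716). Its second probe set, 1448231_at, went the other way, at -0.14 ± 0.17, and did not pass (limma over every probe set, adjusted p = 0.634). Tsc22d3 was at -0.36 ± 0.11 (adjusted p = 0.0157) and Sgk1 at -0.39 ± 0.12 (adjusted p = 0.0158), both lower in experiment 2. With arrays centred on their medians the calls of Tsc22d3 and Sgk1 ended (adjusted p = 0.1 and 0.0706). A share of 3 of 8 is near the background.

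In the 18 irradiated mice, with the mean of each group removed, members varied together only in part. Mt1 and Mt2 correlated at r = 0.89 and rho = 0.85, with r = 0.95 in the 9 mice of experiment 1, 0.67 in the 9 of experiment 2 and 0.65 without the 2 mice farthest from the median of Mt1. Sgk1 and Tat gave r = 0.62 and rho = 0.57, but r was 0.28 in experiment 1 and 0.88 in experiment 2 (0.50 without 2 mice). Zbtb16 and Dusp1 gave r = 0.59 and rho = 0.62, with r = 0.56 and 0.74 in the experiments (0.61 without 2 mice). Fkbp5 and Tsc22d3 gave r = -0.60 and rho = -0.69, with r = -0.80 and -0.29 (-0.59 without 2 mice). For Zbtb16 and Fkbp5, the pair below their pools in every mouse, r was -0.26 and rho -0.24, and the sign of r turned between the experiments (-0.45 and 0.14) and without 2 mice (0.12). Other pairs came close to the first ones in size: Tsc22d3 and Sgk1 (r = 0.58, rho = 0.36), Fkbp5 and Tat (-0.57 and -0.46) and Tsc22d3 and Tat (0.51 and 0.56). These mice share arrays scaled to a common level, so the values are descriptions.

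Over the 20 arrays with each experiment's mean removed, the gene most like Zbtb16 was Herpud1, of the degradation of misfolded proteins in the endoplasmic reticulum (r = 0.90, and at least 0.88 without any 1 array). The next were Stag2 and Gnl3 (both r = 0.80). Fkbp5 was most like Pde4dip (r = 0.79), Fbxo31 (0.77) and Fam110c (0.76), Tsc22d3 most like Noct (0.82), 5031434O11Rik (0.80) and Selenoi (0.75). Sgk1 was most like Egln3 (0.80), Slc25a25 (0.79) and Pbrm1 (0.75), Dusp1 most like Pan2 (0.84), Cyp2j9 (0.77) and Zfp148 (0.77), and Tat most like Fam174c (0.73), Kcnk5 (0.73) and Ablim1 (0.71). Mt1 was most like Saa2 (0.92), Lcn2 (0.92) and Orm2 (0.90), which are acute-phase genes, and Mt2 most like Orm2 (0.90), Lcn2 (0.90) and Mt1 (0.87). For Mt1 these fell to 0.76, 0.74 and 0.62 without low mouse 1 of experiment 1, and for Mt2 to 0.73, 0.74 and 0.62. The likeness is over 20 arrays that share their scaling, and no p is given.

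The receptor's own machinery was described from a list of 14 genes, of which 10 were tested. In irradiated against control, 0 of 10 passed and 1 had an unadjusted p under 0.05, against 587 of 11216 genes, and the median difference was 0.04 against 0.00 over all genes. Nr3c1, the glucocorticoid receptor, was at 0.09 ± 0.12 (limma, adjusted p = 0.972), Fkbp4, the immunophilin opposing Fkbp5, at -0.36 ± 0.15 (adjusted p = 0.874) and Hsp90aa1, a chaperone of the receptor, at -0.33 ± 0.20 (adjusted p = 0.959). Fkbp4 signals were 3465 and 3454 in the pools, 1857 to 2808 in the irradiated mice of experiment 1 and 2714 to 3969 in those of experiment 2, so the groups overlapped in experiment 2.

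A second list held 36 further genes known to be induced by glucocorticoids, 33 of them tested. In high against control 1 passed, Angptl4, which was lower, and the median difference of the list was 0.01 against 0.00 over all genes. There 11 of 33 had an unadjusted p under 0.05 (limma), against 805 of 11216 genes. Of the 11, Per1, Pck1, Angptl4, Cebpb, Klf9, Klf15, Lpin1 and Errfi1 were lower, and Igfbp1, Rgs2 and Ppp1r3c were higher. In irradiated against control 0 passed, with 19 positive and 14 negative differences, and 6 had an unadjusted p under 0.05, against 587 of 11216 genes. In high against low 0 passed, and 14 had an unadjusted p under 0.05, against 1127 of 11216 genes over the whole array. The 14 went both ways: Per1, Angptl4, Cebpb, Cebpd, Klf9, Got1 and Errfi1 were lower. Pdk4, Igfbp1, Cdkn1a, Ddit4, Glul, Ppp1r3c and Ppargc1a were higher. Of the 33 differences 18 were positive and 15 negative, and their median was 0.04.

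Angptl4, an inhibitor of lipoprotein lipase, gave 4782 and 6124 in the pools. In experiment 1 the low mice gave 3182, 3582 and 1839, the medium mice 1709, 1771 and 1354 and the high mice 1770.1, 1329.95 and 1995. In experiment 2 they gave 3305, 5628 and 4593, then 2709, 3243 and 4537, then 1211, 2398 and 2229. All 18 were below their pool. High against control was -1.61 ± 0.30 (limma, adjusted p = 0.0378), and the call ended on leaving out any of 9 of the 20 arrays, both pools among them (adjusted p = 0.0516 to 0.63). It also ended without a variance trend (adjusted p = 0.145), without the experiment term (0.422) and in either experiment alone (0.254 and 0.303). With no filter the choice of 1 probe set per gene fell on another probe set of Angptl4, which was at -0.19 (adjusted p = 0.978).

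Lpin1, a phosphatidate phosphatase of lipid synthesis, was at -1.06 ± 0.27 in irradiated against control (limma, adjusted p = 0.263) and lower than its pool in 17 of 18 mice. Rgs2, a regulator of G-protein signalling, was at 0.79 ± 0.26 (adjusted p = 0.688) and above its pool in 17 of 18 mice. Neither passed.

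**Figure D5:**
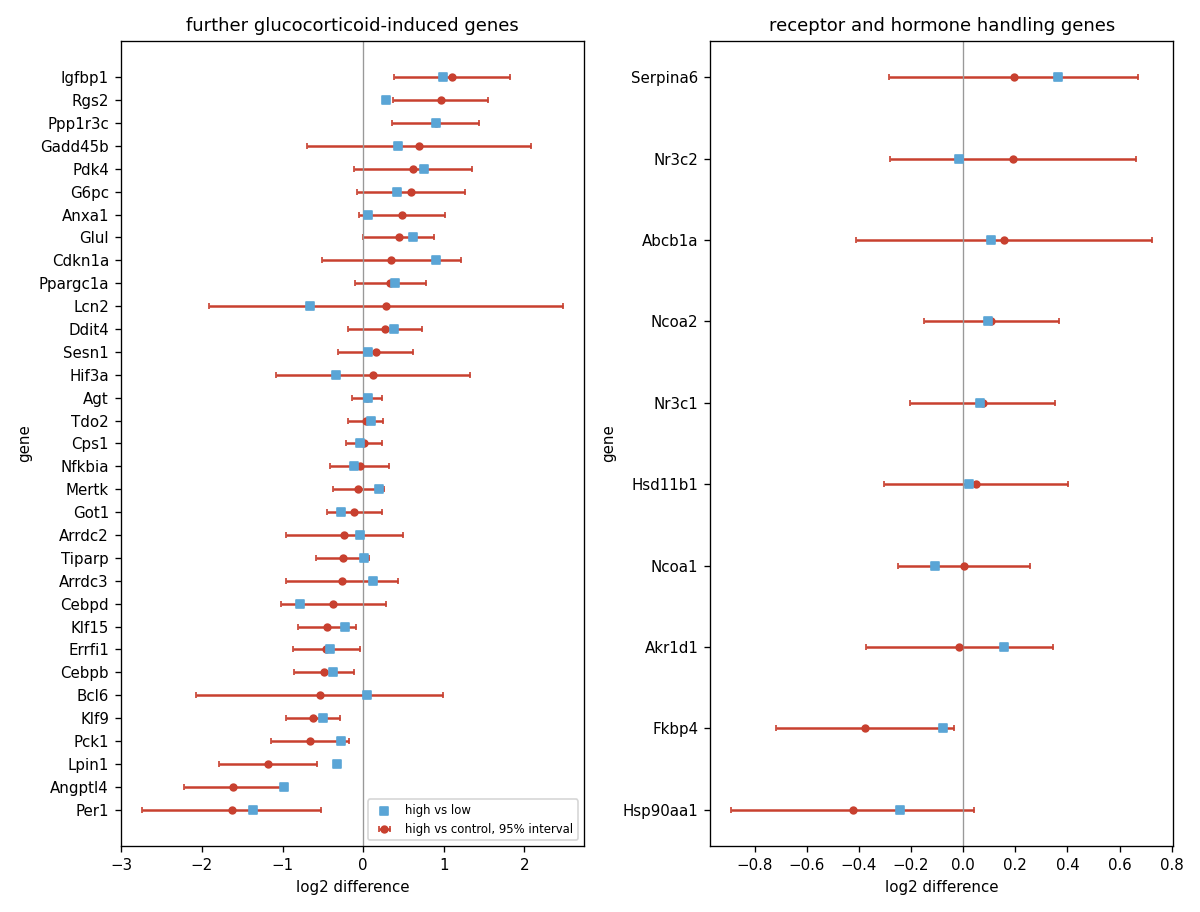
Differences of the 33 tested further glucocorticoid-induced genes and the 10 tested receptor and hormone handling genes on the log2(signal + 7.12) scale: red points are high against control with 95% intervals from the limma fit, and blue squares high against low. Angptl4 in high against control is the 1 value past the threshold, at -1.61.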

How the data were processed

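The authors' deposited values are MAS5 signal intensities on a linear scale, per the submitters' processing notes; no version of MAS5 was stated in the sources used. The 45101 probe sets were measured on 20 arrays, and 0 columns lacked a sample. Symbols came from the platform annotation (1 symbol for 34945 probe sets, several for 932, none for 9160, and 64 array controls). Values were transformed as log2(signal + 7.12), 7.12 being the 10th percentile of all signals, which understates changes at low signal. Probe sets at or above the median of the mean log2 signals were kept (22519), 1 per gene (not _s_at or _x_at first, then the highest mean), leaving 11216 genes.

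Differences came from limma 3.58.1 in R 4.3.3, through lmFit and then eBayes allowing a variance trend, over the 20 arrays and with terms for dose level and experiment (15 residual degrees of freedom), two-sided, with Benjamini-Hochberg adjustment at 0.05. Interactions used a mean for each of the 8 groups. Nothing says whether mice shared a litter or cage, so p-values measure the spread between these arrays, whose number limits the precision. Members, lists and tests were chosen with earlier results of these data known. All members were named, with list genes past the threshold or else the 3 with the smallest p, and for each member the 3 most alike genes. The code was tested on simulated data. Same-numbered mice correlated at -0.152 to 0.30 over 18 pairs, 8 of them over 0.1. Mice of different numbers were not compared, so these values cannot tell whether numbers pair mice. The main fit treats them as unpaired. Alternatives were pseudocounts, filters, scaling, probe-set choice, weights, single experiments and single arrays left out. The promoter windows are RefSeq's.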

Additional observations from a re-analysis of the deposited data

Results flagged for a closer look

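For Sgk1, a kinase gene, every high mouse was below every medium mouse in experiment 1 and above every medium mouse in experiment 2. How many of all genes separate in this way was not counted. The log2 difference of high against medium was 0.98 higher in experiment 2 than in experiment 1, and the limma interaction did not pass (adjusted p = 0.816).

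For Dusp1, a phosphatase gene, every medium mouse was above every low mouse in experiment 1 and below every low mouse in experiment 2. The share of all genes with such a separation was not counted here either. The difference of medium against low changed by -2.15 from experiment 1 to experiment 2, and the limma interaction did not pass (adjusted p = 0.144).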

How the results depend on the processing

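Of 1459 values recomputed for 42 reported differences under 36 settings, 1406 kept their direction and their side of the threshold. Counts of members past the threshold, recomputed besides, changed as follows. Arrays weighted by their number of mice gave 2 members past the threshold (Zbtb16 and Fkbp5) in high, medium and irradiated against control. Every probe set with no filter, added after seeing the data, gave 1 in high against control (Zbtb16), and experiment 2 alone gave 1 in high against low (Zbtb16). Median-centred arrays left 1 of 3 members past the threshold between experiments (Fkbp5). Leaving out single arrays gave 0 to 1 members in high against control.

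Some uncalled differences changed sign. With no filter, the choice of probe set for Mt1 fell on another one, 1451612_at, which had not passed the filter. Its difference in high against low was 0.10. For Tat, high against control was -0.069 with median-centred arrays and -0.016 with quantile normalization. In experiment 1 alone, high against control was 0.61 for Mt2 and -0.29 for Tat, irradiated against control 0.78 for Mt2 and -0.12 for Tat, high against low -0.050 for Tat and medium against low 0.26 for Zbtb16. In experiment 2 alone, high against control was -0.046 for Mt1, high against low 0.21 for Mt1, 0.17 for Mt2 and -0.30 for Dusp1, medium against low -1.003 for Dusp1 and high against medium 0.47 for Sgk1.

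Leaving out single arrays moved these ranges across 0: Mt1 in high against control -0.23 to 0.49, Mt2 in high against control -1.45 to 0.62, in irradiated against control -1.30 to 0.78 and in high against low -0.85 to 0.33, Tat in high against control -0.19 to 0.25, in irradiated against control -0.12 to 0.32 and in high against low -0.0038 to 0.10, Sgk1 in high against medium -0.14 to 0.11, Dusp1 in medium against low -0.11 to 0.38, and the difference between experiments of Zbtb16 in irradiated against control -0.23 to 0.093. Apart from the change of probe set for Mt1, the cause of each change was not tested. With the replicate number as a block, over irradiated mice, Zbtb16 in high against low was -1.20 (adjusted p = 0.182), and the block changed no call of a member. Each control is 1 pool per experiment, which limits every comparison with control.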
